A study of Homo sapiens with 6 samples.

Results

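The genes described here are 10 feedback inhibitors of the mitogen-activated protein (MAP) kinase cascades, of which 7 were dual-specificity phosphatases (DUSP1, DUSP4, DUSP5, DUSP6, DUSP8, DUSP10 and DUSP16) and 3 were Sprouty genes (SPRY1, SPRY2 and SPRY4). They were taken by name, with earlier results of these data known. Each matched exactly 1 Ensembl identifier among the 61496 features of the count and FPKM tables. U251 is an established human glioma cell line. RNA sequencing covered 3 libraries of untreated control cells and 3 libraries of cells exposed for 2 h to sevoflurane (Sev), a volatile anesthetic. The deposited protocol lists Sev gas at 1.7%, 3.4% and 5.1% without assigning a concentration to any library, and only the highest of these is named for the sequenced comparison in the published description. The cells carried no transgene or deletion by their labels, and nothing in the labels says that the 3 libraries of a group came from separate cultures, so p-values measure the spread between these libraries, which may be technical.

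MAP kinases such as ERK, JNK and p38 carry growth factor and stress signals to the nucleus, where they switch on early response genes. Among the genes they switch on are their own brakes. The DUSP proteins described here remove the phosphates from both the threonine and the tyrosine of an active MAP kinase, and the Sprouty proteins act further upstream, close to the receptor tyrosine kinases. The mRNAs of several of these brakes are short-lived, so that their levels follow the activity of the cascade closely, and gliomas often carry an overactive receptor tyrosine kinase at its top.

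All 10 genes passed the expression filter and were among the 27514 features tested. Sev treatment raised 7 of them (DUSP4, DUSP5, DUSP8, DUSP10, DUSP16, SPRY2 and SPRY4) and lowered 1, DUSP6, at an adjusted p-value under 0.05. DUSP1 and SPRY1 did not pass. Of all tested features, 22.1% were called higher and 21.5% were called lower by the same rule, and for protein-coding genes the shares were 25% and 21%. Upward calls made up 50.7% of all calls, and 38.3% with library size only. The same 7 genes were higher in each Sev library than in each control library in CPM, against 28.3% of all tested features. DUSP6 was lower in each Sev library, against 28.2%. Here CPM are counts scaled to library size times the TMM factor, which was lower in each Sev library than in each control library. With library size only, the groups overlapped for DUSP10, as control 1 held 1783 of 39389082 counts and Sev 1 held 1699 of 39645774. Only DUSP4 and DUSP5 passed the fold threshold of the study, a log2 fold change over 1 with an unadjusted p-value under 0.05, which 11.4% of features passed upward. None of the 10 genes passed it downward, which 12% of features did. The median log2 fold change (log2FC, Sev over control) of the 10 genes was 0.52, against −0.0056 over all tested features. Of the 8 calls, those of DUSP4, DUSP5, DUSP16 and DUSP6 held under each of 15 alternative settings.

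**Figure D1:**
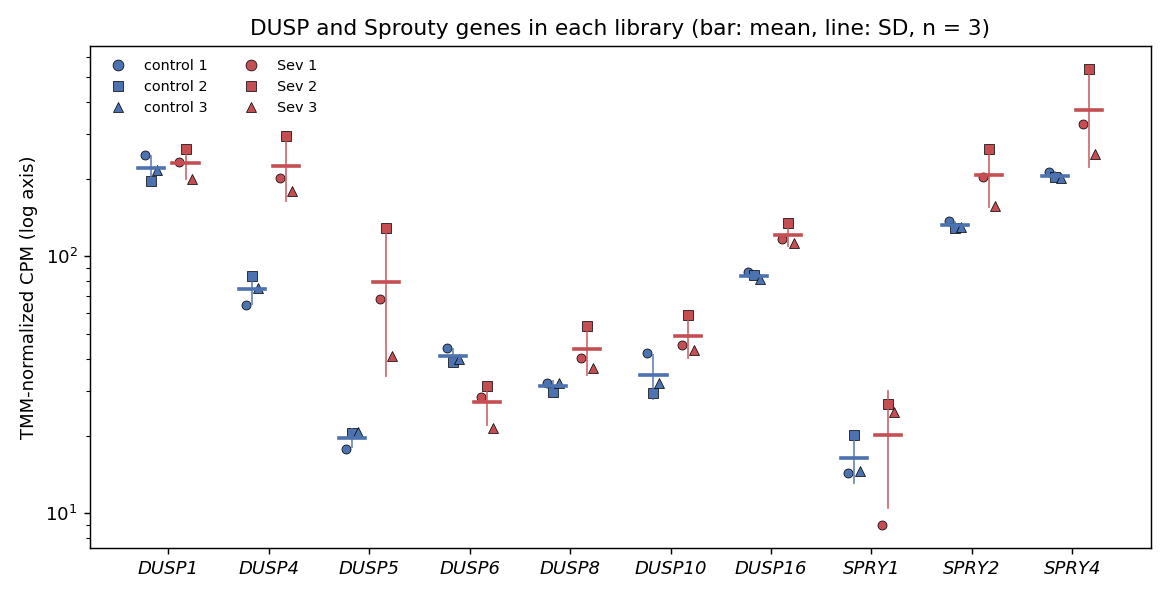
TMM-normalized CPM of the 10 genes in each of the 6 libraries, on a log axis, with blue for control and red for Sev libraries, a symbol for each replicate, and the mean and SD of each group. DUSP4 and DUSP5 show the widest gap between the groups, DUSP6 is lower in Sev, and Sev replicate 2 is the highest Sev library for all 10 genes.

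Library totals were between 38624292 and 46318311 counts. The TMM factors were between 1.03 and 1.08 in the control libraries and between 0.918 and 0.988 in the Sev libraries. The glial markers were abundant, with a summed level of 7607 to 8498 CPM over 7 genes in the control libraries and 8777 to 9255 CPM in the Sev libraries. Among these markers CD44 and EGFR were higher, S100B was lower and 4 were not called in Sev. The 8 markers of leukocytes, epithelium, liver and endothelium together held 8.56 to 12.2 CPM in the control libraries and 11 to 12.9 CPM in the Sev libraries, and of the 4 that were tested PECAM1 alone was called, as higher. CD3E was at 0 in each library, and PTPRC, EPCAM and CDH1 had at most 12 counts. The part of these marker differences in the results was not tested. In bulk RNA, fewer cells that express a gene and less RNA of it in each cell cannot be told apart.

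DUSP4 and DUSP5, which encode nuclear phosphatases, showed the largest increases of the 10 genes. DUSP4 acts mainly on ERK and JNK, and DUSP5 is selective for ERK. DUSP4 (ENSG00000120875) stood at 64.9, 83.9 and 75.3 CPM in the control libraries and at 201, 294 and 180 CPM in Sev libraries 1, 2 and 3. The lowest Sev library was more than double the highest control library. Its log2FC was 1.59 (standard error, SE, 0.19, adjusted p = 0.000622), a 3.02-fold rise with a 95% interval from 2.22 to 4.09. DUSP5 (ENSG00000138166) had 17.8, 20.5 and 20.7 CPM in control cells and 68.3, 129 and 40.9 CPM in Sev-treated cells. The control libraries lay close together, and the groups did not overlap. In proportion to their mean, the Sev libraries differed from each other by more than they did for DUSP4. The log2FC of DUSP5 was 2.02 (SE 0.37, adjusted p = 0.00368), a 4.04-fold rise with a 95% interval from 2.24 to 7.28. Without Sev replicate 2, the log2FCs were 1.48 for DUSP5 (adjusted p = 0.0025) and 1.36 for DUSP4 (adjusted p = 0.000631).

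DUSP1, the immediate early nuclear phosphatase that acts on p38, JNK and ERK, was the most abundant of the 10 mRNAs and did not pass the test. It measured 248, 196 and 217 CPM in control cells and 233, 263 and 200 CPM in Sev-treated cells, so the groups overlapped. The log2FC was 0.075 (SE 0.12, adjusted p = 0.654), with a 95% interval from −0.21 to 0.36, and it turned to −0.074 with library size only and to −0.070 on log2(FPKM + 1). As a fold, the interval ran from 0.862 to 1.29.

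DUSP6, a cytoplasmic phosphatase selective for ERK, was the gene that fell. It had 44.2, 38.8 and 39.7 CPM in control cells and 28.4, 31.2 and 21.5 CPM in Sev-treated cells. The highest Sev library stayed under the lowest control library. The log2FC was −0.60 (SE 0.14, adjusted p = 0.012), which left 0.661 of the control level with a 95% interval from 0.524 to 0.832. Leaving out each library in turn gave log2FCs from −0.71 to −0.46 and adjusted p-values from 0.00862 to 0.0433. DUSP6 and the other inducible phosphatases DUSP4 and DUSP5 moved apart within the same libraries. The ratio of DUSP4 to DUSP6 in FPKM, the deposited values scaled by gene length, was 0.78, 1.15 and 1.01 in the control libraries and 3.77, 5.02 and 4.45 in the Sev libraries. For DUSP5 over DUSP6 the ratio was 0.614, 0.806 and 0.795 in control cells and 3.67, 6.33 and 2.90 in Sev-treated cells. These ratios are within a library and do not depend on how libraries are scaled to each other.

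The remaining phosphatases, DUSP8, DUSP10 and DUSP16, are known to act mainly on the stress kinases JNK and p38, and each rose by less than the fold threshold. DUSP16 had 86.8, 84.6 and 81.5 CPM in control cells and 117, 135 and 113 CPM in Sev-treated cells. Its replicates were the tightest of the 3 genes, and the log2FC was 0.53 (SE 0.091, adjusted p = 0.0028). DUSP8 had 32, 29.7 and 32.2 CPM in control cells and 40.2, 53.7 and 36.7 CPM in Sev-treated cells, a log2FC of 0.48 (SE 0.15, adjusted p = 0.0309). DUSP10 had 42.1, 29.3 and 32.2 CPM against 45.1, 59.1 and 43 CPM, a log2FC of 0.51 (SE 0.17, adjusted p = 0.044). For DUSP10 the gap between the highest control and the lowest Sev library was narrow in CPM, and in FPKM the groups overlapped. The call of DUSP8 was lost in 9 and that of DUSP10 in 10 of the 15 alternative settings, and without Sev replicate 2 their log2FCs were 0.30 (adjusted p = 0.0449) and 0.36 (adjusted p = 0.113).

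SPRY2 and SPRY4, the more abundant Sprouty genes, were higher in Sev-treated cells. SPRY4 had 214, 204 and 203 CPM in control cells and 328, 539 and 250 CPM in Sev-treated cells. Its control libraries were almost level, and its Sev libraries spanned a wide range above them. The log2FC was 0.85 (SE 0.24, adjusted p = 0.0245). SPRY2 had 137, 129 and 131 CPM against 204, 261 and 157 CPM, a log2FC of 0.65 (SE 0.17, adjusted p = 0.0153). Without Sev replicate 2 the values were 0.49 for SPRY4 (adjusted p = 0.0173) and 0.45 for SPRY2 (adjusted p = 0.0216). The call of SPRY4 was lost without any one of the 3 control libraries, and that of SPRY2 without control replicate 2 or control replicate 3. In limma on FPKM, SPRY4 missed the threshold under each of the 3 settings, and SPRY2 under the 1 without a filter, so that the calls were lost in 6 and 3 of the 15 alternative settings. SPRY1 had 14.3, 20.2 and 14.6 CPM in control cells and 9, 26.6 and 24.8 CPM in Sev-treated cells. Sev replicate 1 lay under each control library and the other 2 Sev libraries above them, so that no direction could be given. The log2FC of SPRY1 was 0.30 (SE 0.37, adjusted p = 0.54), with a 95% interval from −0.55 to 1.14, and it was 0.65 (adjusted p = 0.0335) without Sev replicate 1.

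The Sev libraries were ranked alike by these genes. In CPM, Sev replicate 2 was the highest Sev library for all 10 genes, DUSP6 included, against 37.5% of all tested features. It was also the highest for 12 of 15 ERK-responsive transcripts, 10 of 13 other brakes of the cascade and 15 of 25 genes from the receptors to ERK. Among atypical dual-specificity phosphatases it was the highest for 3 of 10, and among JNK, p38 and ERK5 kinase genes for 5 of 15. The order Sev 2, then Sev 1, then Sev 3 held in CPM for 9 of the 10, against 23.3% of all tested features. SPRY1 was the exception. In FPKM, DUSP16 left this order as well, with 12.58 in Sev 1 and 12.60 in Sev 3. The same order held in CPM for 10 of 15 ERK-responsive transcripts and for 9 of 25 genes of the cascade from the receptors to ERK. The replicates of a group carry no order by their labels, and whether the Sev libraries differed in exposure, harvest or preparation was not tested.

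**Figure D2:**
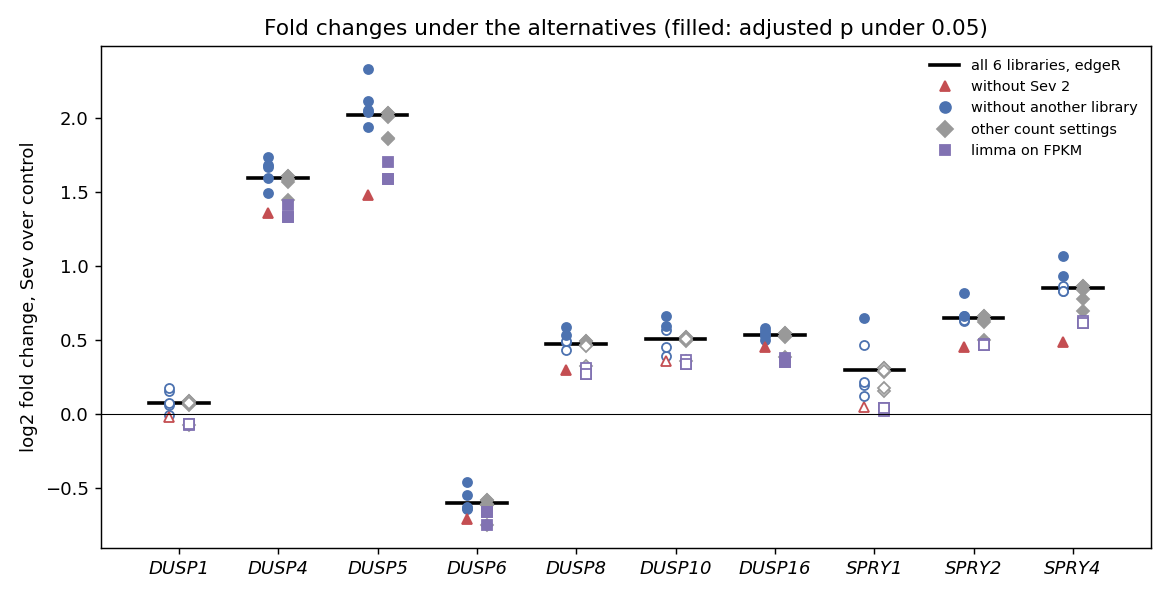
log2FC of Sev over control for the 10 genes in the edgeR fit of all 6 libraries (black bar) and under the alternatives, with a red triangle for the fit without Sev replicate 2, blue circles for the fits without another library, grey diamonds for other count settings and purple squares for limma on FPKM. Filled symbols have an adjusted p-value under 0.05. DUSP4, DUSP5, DUSP16 and DUSP6 are filled throughout, and DUSP1 lies on both sides of 0.

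The levels of different genes were compared in FPKM. In control cells DUSP1 was the highest, at 93.2 FPKM on average, followed by SPRY2 at 35 and SPRY4 at 26.7 FPKM, and the ranges of these neighbours did not overlap. DUSP10, DUSP16, DUSP6 and DUSP4 followed between 8.71 and 10.4 FPKM, with ranges that overlapped from each gene to the next. DUSP5 had 6.59, DUSP8 5.36 and SPRY1 3.49 FPKM. In Sev-treated cells DUSP1 was again the highest, at 88.5 FPKM, and SPRY2 and SPRY4 followed at 49.4 and 43.2 FPKM with overlapping ranges. DUSP5 moved from rank 8 to rank 4, at 23.8 FPKM, and DUSP4 from rank 7 to rank 5, at 23.7 FPKM. The Sev range of DUSP5, from 12.8 to 37.9 FPKM, overlapped those of SPRY4, DUSP4, DUSP10 and DUSP16. By CPM per kilobase of exon DUSP4 came before DUSP5. DUSP6 moved from rank 6 to rank 9, at 5.36 FPKM, where its range overlapped those of DUSP8 and SPRY1. DUSP1 made up 66.9%, 62.8% and 65% of the summed FPKM of the 7 phosphatase genes in the control libraries and 53.1%, 46.6% and 54% in the Sev libraries. The sum over the 3 Sprouty genes was 63.7 to 68.4 FPKM in control cells and 74.1 to 126 FPKM in Sev-treated cells.

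**Figure D3:**
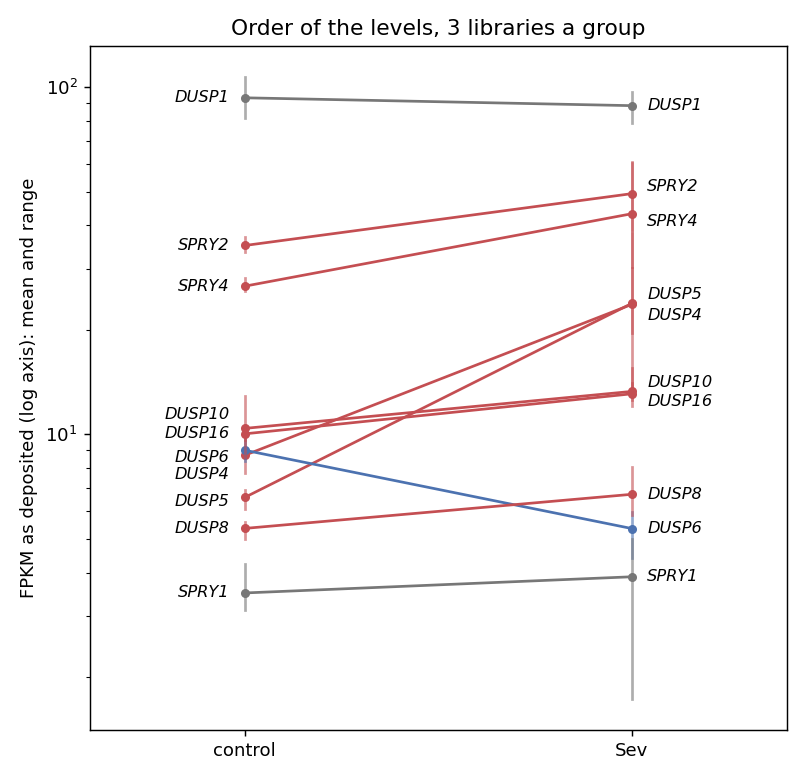
Deposited FPKM of the 10 genes on a log axis, as the mean and range of 3 libraries in control and in Sev-treated cells, with red for genes called higher, blue for the gene called lower and grey for genes not called in the count test. DUSP4 and DUSP5 rise from below 10 FPKM to about the same mean, between 23.7 and 23.8 FPKM, and DUSP6 falls below DUSP8.

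The promoters of the genes were set side by side because several of these genes moved in the same direction and DUSP6 in the other. RefSeq sequences on GRCh38.p14, from 250 bases before to 50 bases after a gene's start, matched 8 of the 10 genes in 12 entries, with DUSP4 and DUSP5 not among them. Both strands were searched for the cyclic AMP response element TGACGTCA, its core TGACG, which overlaps it, the AP-1 site TGANTCA, the ETS site CCGGAA, the TATA box TATAAA and the CArG box bound by serum response factor. TGACGTCA was found in 2 of the 12 entries, those of DUSP1 and DUSP8, and in 1.85% of all 35116 promoters. The core TGACG was found in 5 of the 12 entries, and in 24.6% of all promoters. These were the single entries of DUSP1, DUSP8 and SPRY4, 1 of 3 entries of SPRY2 and 1 of 2 entries of DUSP10, the one 5275 bases from the GENCODE start. CCGGAA was found in 2 of the 12 entries, 1 each of SPRY1 and SPRY2, and in 17.2% of all promoters. TATAAA was found in 1 entry, that of DUSP1, and in 11.5%. TGANTCA and the CArG box were found in none of the 12 entries, and in 7.71% and 1.29% of all promoters. Shown are 2 genes that rose, the gene that fell and DUSP1, 1 of the 2 genes that did not pass, each 300 bases long on the minus strand, with the letters of the searched motifs in capitals.
DUSP8 (higher in Sev, chr11:1572222-1572521): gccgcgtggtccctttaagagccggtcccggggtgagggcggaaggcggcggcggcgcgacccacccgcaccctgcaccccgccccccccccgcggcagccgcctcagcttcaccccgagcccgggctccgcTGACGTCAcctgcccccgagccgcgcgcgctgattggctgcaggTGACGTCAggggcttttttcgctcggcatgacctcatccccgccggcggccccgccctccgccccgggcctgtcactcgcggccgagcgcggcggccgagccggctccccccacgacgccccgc
SPRY2 (higher in Sev, chr13:80341077-80341376): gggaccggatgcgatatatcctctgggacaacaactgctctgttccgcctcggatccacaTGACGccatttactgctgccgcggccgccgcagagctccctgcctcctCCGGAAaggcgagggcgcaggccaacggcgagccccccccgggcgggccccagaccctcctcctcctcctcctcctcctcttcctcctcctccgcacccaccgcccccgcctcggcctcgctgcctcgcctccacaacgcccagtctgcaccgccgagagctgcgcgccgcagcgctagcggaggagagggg
DUSP6 (lower in Sev, chr12:89352452-89352751): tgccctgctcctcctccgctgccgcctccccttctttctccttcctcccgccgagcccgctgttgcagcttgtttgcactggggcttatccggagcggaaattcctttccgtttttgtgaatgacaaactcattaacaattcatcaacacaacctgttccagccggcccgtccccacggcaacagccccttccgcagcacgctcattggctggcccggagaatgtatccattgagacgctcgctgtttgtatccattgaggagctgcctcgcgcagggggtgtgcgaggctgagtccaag
DUSP1 (not called, chr5:172771146-172771445): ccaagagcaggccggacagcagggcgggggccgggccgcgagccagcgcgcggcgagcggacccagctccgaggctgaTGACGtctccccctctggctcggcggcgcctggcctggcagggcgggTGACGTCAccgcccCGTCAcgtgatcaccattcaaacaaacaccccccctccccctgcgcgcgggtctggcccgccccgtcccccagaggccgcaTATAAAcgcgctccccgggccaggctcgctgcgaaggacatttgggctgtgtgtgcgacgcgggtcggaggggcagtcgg

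In these windows DUSP8 held 2 copies of TGACGTCA and DUSP1 held 1, while the DUSP6 window held none of the motifs. The RefSeq start of DUSP6 lies 769 bases and that of SPRY4 2207 bases from the GENCODE start, so these windows may not cover the starts used in these cells. The G and C content was 78.3% for DUSP8, 73.3% for DUSP1, 71% for the SPRY2 entry shown and 58.3% for DUSP6. The entry of DUSP16 held none of them either. A match of letters is not a bound site.

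Features next to the 10 genes were read from GENCODE 29 on GRCh38, joined by Ensembl identifier. Of 12 features that overlapped one of the genes or lay within 5 kb of it, 11 were tested, 3 were called higher and 1 lower, against 22.1% and 21.5% of all tested features. DUSP4 lies on chromosome 8 from 29333064 to 29350668, and both lncRNA genes within 5 kb of it rose with it. AC084262.2, a bidirectional promoter lncRNA 624 bases away on the opposite strand, had 18, 8 and 20 counts in control libraries and 47, 43 and 41 counts in Sev libraries, a log2FC of 1.70 (adjusted p = 0.00471). AC084262.1, on the same strand as DUSP4, had 16, 5 and 18 counts against 43, 24 and 35 counts, a log2FC of 1.58 (adjusted p = 0.021). Unlike DUSP4, neither lncRNA gene had its highest count in Sev replicate 2. DUSP5 lies on chromosome 10 from 110497838 to 110511544, and AL355512.1, a lincRNA 1634 bases away on the opposite strand, had 19, 25 and 24 counts in control libraries and 86, 147 and 48 counts in Sev libraries. Its log2FC was 2.23 (adjusted p = 0.00487), and like DUSP5 it was highest in Sev replicate 2 and lowest in Sev replicate 3. SPRY4-AS1, antisense to SPRY4 on chromosome 5, had 145, 105 and 165 counts against 70, 67 and 94 counts and fell by 0.66 on the log2 scale (adjusted p = 0.032), while SPRY4 rose. AC024909.2, antisense to DUSP6 on chromosome 12, had 454, 408 and 550 counts against 279, 539 and 298 counts, a log2FC of −0.15 (adjusted p = 0.674). The other features tested and not called were AC022217.1 near DUSP1, KRTAP5-AS1 antisense to DUSP8, BORCS5 and AC007619.1 at DUSP16, and RF02038 and RF02039 within SPRY4, with adjusted p-values from 0.0691 to 0.837. AC022217.3, antisense to DUSP1, had too few counts to be tested. The libraries were strand-specific, but whether strand was used in counting is not given in the sources used here, and reads of overlapping genes on opposite strands could have been assigned to either.

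Processed pseudogenes that carry the name of one of the 10 genes were looked up after the values of the 10 genes were seen. DUSP5P1 had 240, 184 and 226 counts in control libraries and 26, 16 and 7 counts in Sev libraries, a log2FC of −3.53 (SE 0.39, adjusted p = 0.000448), opposite to DUSP5. Its counts came to 25.3% of those of DUSP5 in the control libraries and 0.541% in the Sev libraries. DUSP8P5 had counts equal to 28.4% of those of DUSP8 in the control libraries and 15.6% in the Sev libraries, and a log2FC of −0.39 (adjusted p = 0.0514). DUSP8P3 had 14, 20 and 30 counts against 5, 3 and 3 counts, a log2FC of −2.31 (adjusted p = 0.00506), and DUSP8P4, not tested, had 7, 0 and 11 counts against 0 in each Sev library. DUSP5P2 had 3 counts in all. It is not stated how reads that match both a gene and its copy were counted, so the fold changes of DUSP8 and DUSP5 are uncertain to that extent, and the part of shared reads in them was not tested.

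Of the 3 further MAP kinase phosphatases, DUSP2 and DUSP7 rose and DUSP9 did not pass the adjusted test. All 3 were higher in each Sev library than in each control library, against 28.3% of all tested features. DUSP2 and DUSP9 passed the expression filter only through the Sev libraries, so for them this is a description. DUSP2, a nuclear phosphatase best known from lymphocytes, had 7, 15 and 16 counts in control libraries and 96, 175 and 84 counts in Sev libraries. Its log2FC was 3.40 (SE 0.42, adjusted p = 0.000706), at a low level of 3.11 ± 1.36 CPM (SD, n = 3) in Sev. On log2(FPKM + 1) and log2(FPKM + 0.1) it was 0.96 and 2.54. With at least 10 counts in every library DUSP2 was not tested. DUSP7, like DUSP6 a cytoplasmic phosphatase of ERK, rose from 50 ± 0.776 to 72.6 ± 1.83 CPM, a log2FC of 0.54 (adjusted p = 0.00106), while DUSP6 fell. DUSP9 had 0, 14 and 0 counts against 24, 18 and 43 counts (adjusted p = 0.0658). It passed the fold threshold at an unadjusted p of 0.031, a pass that rests on control libraries at or near 0 counts. Of the 4 other Sprouty-family genes, only SPRED2 passed, with a log2FC of 0.68 (SE 0.094, adjusted p = 0.00119), and SPRED1, SPRED3 and SPRY3 had log2FCs of −0.045, 0.21 and −0.071. The atypical dual-specificity phosphatases, most of which are not dedicated to MAP kinases, gave 4 higher (DUSP11, DUSP12, DUSP14 and DUSP15) and 2 lower (DUSP18 and DUSP19) of 10 tested, against 25% and 21% of protein-coding genes, with a median log2FC of 0.15. DUSP12 had a log2FC of 1.16 and DUSP19 of −1.84, and the call of DUSP18, at −1.05, was lost in 3 of 6 leave-one-out fits. DUSP15, with 5, 17 and 20 counts in control libraries, also passed the filter only through the Sev libraries.

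**Figure D4:**
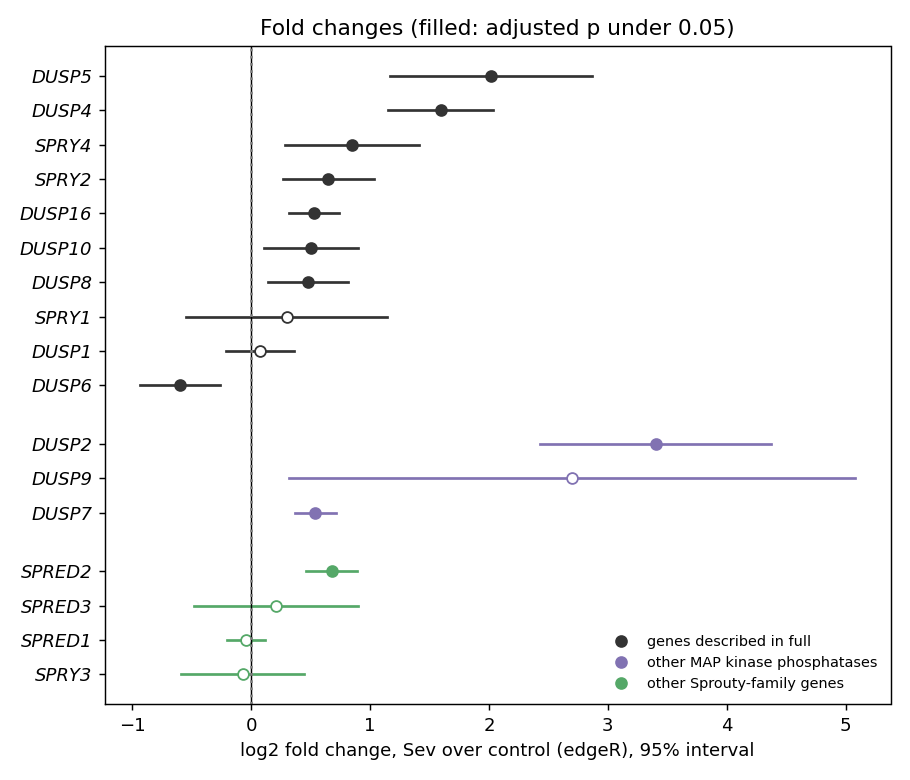
log2FC of Sev over control from edgeR with its 95% interval for the 10 genes (black), the other MAP kinase phosphatases (purple) and the other Sprouty-family genes (green), with filled points for an adjusted p-value under 0.05 and a dotted line at the median of all tested features. DUSP2, with few counts in control libraries, has the highest value, 3.40, and DUSP6 the lowest, −0.60.

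ERK-responsive transcripts, the genes that ERK signaling is known to induce, gave 9 higher and 1 lower of 15 tested, or 60% and 6.67%, with a median log2FC of 0.48. Of protein-coding genes tested, 25% were called higher and 21% lower. The list was chosen with earlier results of these data known, so these shares are a description. The AP-1 subunit gene FOSL1 rose from 16.3 ± 2.77 to 86.4 ± 9.46 CPM (SD, n = 3), a log2FC of 2.41 (SE 0.15, adjusted p = 6.67e-05). HBEGF, a ligand of the EGF receptor, had a log2FC of 1.90, CCND1, which encodes cyclin D1, had 0.98, and the ETS factor gene ETV5 had 0.61. FOS, an immediate early gene, fell from 564 ± 38.1 to 400 ± 49.2 CPM, a log2FC of −0.50 (SE 0.11, adjusted p = 0.00789). EGR1, another immediate early gene, which was named after its values were seen, rose from 599.6 ± 66.7 to 823 ± 129 CPM, a log2FC of 0.46 (SE 0.13, adjusted p = 0.0252). Of the other EGR and IER genes of this list, named in the same way, IER3 was called higher, with 2.12 (adjusted p = 0.0164). EGR3 and IER2, at −0.17 and 0.17, were not called.

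The cascade from the receptors to ERK gave 7 higher and 3 lower of 25 tested, or 28% and 12%, and no gene of it passed the fold threshold. The share called higher was near the 25% of protein-coding genes. Among the higher genes, the adaptor gene FRS2 had a log2FC of 0.84, NRAS of 0.66 and the phosphatase gene PTPN11, which promotes RAS activation, of 0.42. Among the lower genes, SOS2, a RAS exchange factor, had −0.73. Other brakes of the cascade gave 4 higher and 1 lower of 13 tested, or 30.8% and 7.69%, against 25% and 21% of protein-coding genes. ERRFI1, an inhibitor of the EGF receptor, rose from 236 ± 15 to 439 ± 62.7 CPM, a log2FC of 0.89 (SE 0.12, adjusted p = 0.000853), and PPP2CA and RASA2 had 0.63 and 0.77. PEBP1 had 0.26, a call lost in 5 of 6 leave-one-out fits. IL17RD, a membrane inhibitor of FGF receptor signaling, fell from 25.6 ± 0.39 to 13.9 ± 1.0 CPM, a log2FC of −0.89 (SE 0.10, adjusted p = 0.000539).

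The JNK, p38 and ERK5 kinase genes gave 5 higher and 3 lower of 15 tested, or 33.3% and 20%, against 25% and 21% of protein-coding genes, with a median log2FC of 0.14. MAP2K3, a kinase that activates p38, had the largest rise of this list, with a log2FC of 1.35 (SE 0.15, adjusted p = 0.000512). MAPK13, MAPK11 and MAP3K5 had 1.15, 0.70 and 0.51, and the lower genes MAP2K5, MAPK12 and MAPK10 had −0.70, −0.67 and −0.84. The call of MAPK10 was lost in 2 of 6 leave-one-out fits.

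**Figure D5:**
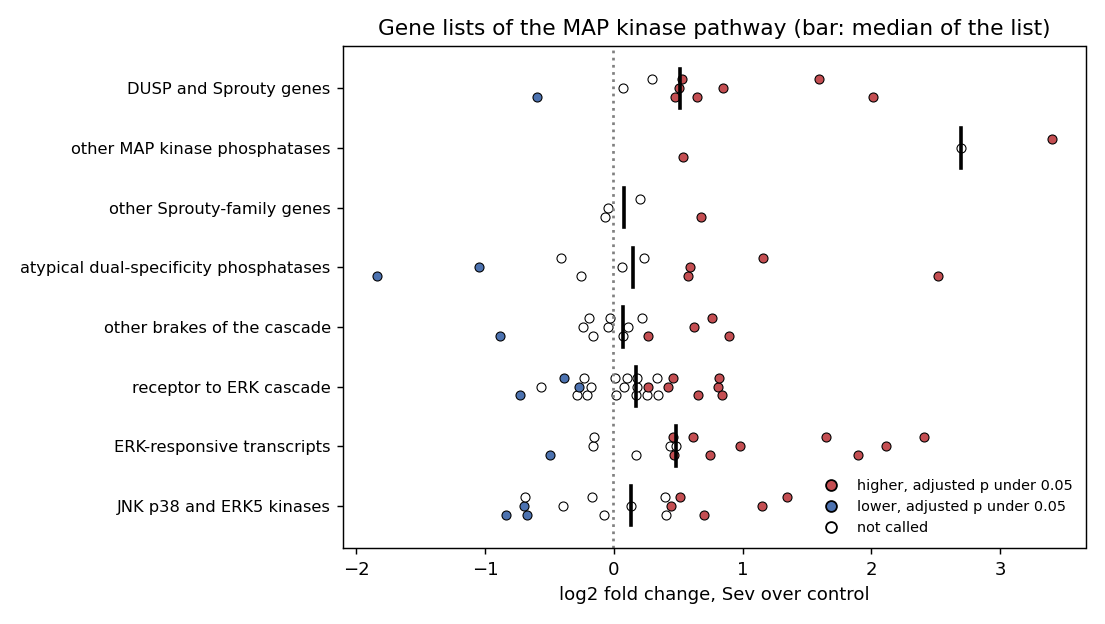
log2FC of Sev over control from edgeR for each tested gene of 8 lists, in red for genes called higher, blue for genes called lower and white for genes not called, with a bar at the median of each list and a dotted line at the median of all tested features. The 10 DUSP and Sprouty genes and the ERK-responsive transcripts have medians of 0.52 and 0.48, and the receptor to ERK cascade has 0.17.

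Tested features whose course over the 6 libraries was nearest to each called gene were found among 12454 features with a symbol and a mean of at least 5 CPM, by the root mean square distance of the log2 CPM after centring. For DUSP4 they were SETD1A and FAM83G, at distances of 0.044 and 0.075. For DUSP5 they were ETS2, an ETS factor gene, and PRDM1, at 0.098 and 0.12. DUSP6 was nearest to GALK1 and NBR1, at 0.035 and 0.045, and DUSP16 to SYT1 and SYNE2, at 0.021 and 0.023. For SPRY4 they were AVPI1 and MAP4K3, for SPRY2 HS6ST3 and SRP72P2, for DUSP8 GAS6-AS1 and GATAD2B, and for DUSP10 ARHGAP4 and FAM229A, at distances from 0.050 to 0.079. With 6 libraries in 2 groups such likeness is a description of the profile.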

How the data were processed

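Per the study's methods, total RNA of U251 cells was depleted of ribosomal RNA, and strand-specific libraries were sequenced in paired ends by a commercial provider. The authors deposited raw counts per feature, without normalization, and FPKM values, whose computation is not described. The submitters' processing notes name bcl2fastq 2.19, featureCounts and hg18, while the aligner and annotation are not given in the sources used here. Symbols were joined through Ensembl identifiers (60295 matched), and positions come from GENCODE 29 (GRCh38).

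Counts were tested with edgeR 4.0.16 in R 4.3.3, using filterByExpr, TMM, glmQLFit and glmQLFTest, 3 Sev against 3 control libraries, no covariate, with Benjamini-Hochberg adjustment over all 27514 tested features and a limit of 0.05. Standard errors are the absolute log2 fold change over the square root of F, and 95% intervals use the test's degrees of freedom. An exact permutation test of 3 against 3 cannot go under 0.1 and was not used. Replicates differed beyond sampling noise in 42.6% to 63.7% of 15608 abundant features. Deviations from the group means correlated between libraries of the same number at −0.0072, 0.0035 and 0.027, so the numbers were not taken to pair them. The scripts were tested on simulated data.

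The members and lists were chosen with earlier results of these data known. In full are given the 10 genes, and of each list up to 4 called genes in each direction by p-value. Some genes that this rule names are not reported here. Libraries held 38624292 to 46318311 counts, and precision rests on 3 libraries a group. Alternatives used DESeq2 1.42.0, limma 3.58.1 on log2(FPKM + 1) or log2(FPKM + 0.1), other filters and scalings, a replicate block and each library left out.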

Additional observations from a re-analysis of the deposited data

How the results depend on the processing

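Of 150 values of the 10 genes under alternatives, 115 kept their direction and side of the threshold, 28 lost a call, 1 gained it and 6 turned. The values that turned were all of DUSP1, at −0.074 with library size only, −0.070 and −0.071 on log2(FPKM + 1) and log2(FPKM + 0.1), −0.070 without the FPKM filter, −0.0083 without control replicate 2 and −0.021 without Sev replicate 2. Its leave-one-out fits ran from −0.021 to 0.17. The number of the 10 genes called higher, 7, was 4 with limma on either FPKM scale and 3 without the FPKM filter. With library size only, and with no expression filter on the counts, it was 5, and DUSP8 and DUSP10 lost their calls in both. The number was 3 to 7 over the leave-one-out fits, with 3 both without control replicate 2 and without control replicate 3. DUSP6 was the single gene called lower in each of these fits. With the replicate number as a block, a pairing that the data did not bear out, 5 genes were higher and 1 lower, and DUSP8 and DUSP10 lost their calls. Over all features, limma gave 3676 and 3623 higher calls on the FPKM scales in place of 6094, and 6709 and 6530 lower calls in place of 5920, so that 35.4% of calls were higher on log2(FPKM + 1). Past the fold threshold, 3147 features were higher and 3315 lower with all 6 libraries. At least 10 counts in every library left 1691 and 2148, log2(FPKM + 1) left 579 and 690, log2(FPKM + 0.1) left 1476 and 2973, and no FPKM filter left 579 and 691. Of the listed pathway genes 32 were higher and 10 lower, against 20 higher on log2(FPKM + 1) without a filter and 19 lower with library size only. By counts per kilobase of exon, 6 genes in each group kept their FPKM rank of 10. Library size only moved the median log2 fold change of all features to −0.15 and the share of calls that were higher from 50.7% to 38.3%. The causes were not tested.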
